A study of Mus musculus with 12 samples.

Results

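Odorant receptors (ORs) are the G protein-coupled receptors of the olfactory sensory neurons in the main olfactory epithelium (MOE). Each mature neuron settles on expressing a single OR gene from a single allele, and OR genes lie in clusters of recently duplicated copies, so genes next to each other in the genome are often close relatives that are expressed by different neurons. The level of an OR transcript in whole tissue therefore follows how many neurons express that receptor and how much of it each neuron holds, and in these bulk samples fewer cells and less RNA per cell cannot be told apart.

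The OR genes described here are those of the numbered series Olfr373 to Olfr412 and Olfr1372 to Olfr1396 that had a probe set naming no other gene, 38 genes of the 1015 OR genes with such a probe set on the array. All 38 had a mean log2 signal above 5, the level used as a filter, as did 984 of the 1015. The reference annotation (GRCm38.p6) put 36 of the 38 on chromosome 11, with 21 between Olfr376 and Olfr412 and 15 between Olfr1377 and Olfr1396. The numbers do not follow the chromosome throughout: Olfr373 and Olfr374 are annotated on chromosome 8 and were kept apart below. The 2 number ranges hold 65 numbers, and 64 of them have a name in the annotation, 47 protein-coding genes and 17 pseudogenes. Of the 9 protein-coding genes without a probe set of their own, 8 shared a probe set with relatives (Olfr1386, Olfr1385, Olfr1381, Olfr1380, Olfr1373, Olfr391, Olfr403 and Olfr406) and Olfr1375 was on neither kind. Chromosome 11 carries 83 protein-coding Olfr genes in the annotation, 69 of them with a probe set of their own, so the 36 are a part of its repertoire and the same clusters hold other OR genes, such as Olfr139, Olfr59 and Olfr10.

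The arrays came from mice that had the right nostril closed by electrocautery (unilateral naris occlusion, UNO) at 2 weeks of age and were taken 3 weeks later, at 5 weeks. The 4 groups of 3 arrays compared MOE tissue from the open or the closed side, in wild-type (WT) mice and in H2be-KO mice (KO), in which the coding sequence of H2be, a histone H2B variant of olfactory neurons, is replaced in all cells by a membrane-targeted mCherry. The design text gives 2 mice, a female and a male, in each sample, where a figure legend of the study gives another number of animals, and an age field reads 6 months against the 5 weeks of the titles. All mice had the surgery and buprenorphine at 0.05 mg/kg, so the open side is the other nostril of an occluded mouse and not the nose of an unoperated mouse.

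The median signal over all probe sets differed little between arrays, from 7.21 to 7.30, and array pairs correlated at 0.972 to 0.985 within groups and 0.968 to 0.984 between groups. Omp, the classical marker of mature olfactory neurons, had a mean log2 signal of 12.6, and Cyp2g1 of sustentacular cells 12.4. H2bc21, the array's name for H2be, read 11.55 to 11.75 on the 6 WT arrays and 11.31 to 11.46 on the 6 KO arrays. These ranges do not overlap, yet the fitted difference was small, -0.26 on the open and -0.27 on the closed side, with adjusted p-values over all probe sets of 0.64 and 1.00, and the position of its probes relative to the deleted sequence was not analysed here.

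Coding starts give a partial view of how closely neighbours resemble each other. Only the first 50 coding bases were compared, position by position and without gaps. A start annotated at another place in the gene would raise the count, and whole coding sequences were not compared. Only members whose annotated start in RefSeq is the start codon could be compared, so others of the cluster, such as Olfr1392 and Olfr1389, were left out. The set shown is Olfr1393 and the 5 compared members of the Olfr1377 to Olfr1396 cluster that differed from it least. It was chosen because it held members both higher and lower on the closed side. The sequences are given as RefSeq has them from the start codon on (build GRCm38.p6). The first 50 coding bases are written 5′ to 3′, and capitals mark bases that differ from Olfr1393 at the same position. Olfr1393 lies at chr11:49280150-49280199, Olfr1391 at chr11:49327413-49327462, Olfr1383 at chr11:49523725-49523774, Olfr1387 at chr11:49459681-49459730, Olfr1382 at chr11:49535187-49535236 and Olfr1388 at chr11:49443853-49443902, all on the plus strand.
Olfr1393: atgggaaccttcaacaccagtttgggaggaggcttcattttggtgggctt
Olfr1391: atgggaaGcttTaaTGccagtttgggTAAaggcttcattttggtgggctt
Olfr1383: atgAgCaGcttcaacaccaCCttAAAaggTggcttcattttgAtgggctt
Olfr1387: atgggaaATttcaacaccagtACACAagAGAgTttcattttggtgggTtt
Olfr1382: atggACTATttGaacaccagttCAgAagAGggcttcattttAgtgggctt
Olfr1388: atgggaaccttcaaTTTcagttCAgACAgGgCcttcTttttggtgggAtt
Olfr1391 differed from Olfr1393 at 7 of the 50 bases, Olfr1383 at 10, and Olfr1387, Olfr1382 and Olfr1388 at 12 each.

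The same stretch is shown for the member with the largest change, Olfr398 (chr11:73984557-73984606, minus strand), for its neighbour Olfr397 (chr11:73964610-73964659, plus strand) and for Olfr1396 (chr11:49113708-49113757, minus strand), here with the start codon in capitals.
Olfr398: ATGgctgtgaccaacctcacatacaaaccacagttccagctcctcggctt
Olfr397: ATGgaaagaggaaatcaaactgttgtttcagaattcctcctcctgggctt
Olfr1396: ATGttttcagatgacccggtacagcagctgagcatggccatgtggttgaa
Olfr398 differed from Olfr1393 at 27 bases, Olfr397 at 24 and Olfr1396 at 36. Over the 24 members whose annotated start in RefSeq is the start codon, the 276 pairs differed at 3 to 40 of the 50 bases, with a median of 28. The closest were Olfr410 against Olfr401 and against Olfr402, at 3 bases each, and Olfr381 against Olfr382, at 4. A probe set that names a single gene can still bind the transcripts of such close copies, and how far it did so was not tested.

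After 3 weeks of occlusion, a few of the 38 members differed between the sides and most did not. In WT mice 2 members were higher on the closed side, Olfr398 and Olfr1391, and none was lower. In KO mice Olfr398 and Olfr1396 were higher and none was lower. With the change averaged over both genotypes, 4 were higher (Olfr398, Olfr1391, Olfr1396 and Olfr1393) and 2 were lower (Olfr1388 and Olfr1389). A change is called here at an adjusted p under 0.05 (limma, Benjamini-Hochberg over the 984 OR genes). The arrays of the sides were treated as independent, which is an assumption: no label states whether same-numbered samples share mice. Calls with a replicate block are given at the end.

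These counts can be set beside those of all OR genes. In WT mice 9.15% of OR genes were called higher and 3.86% lower on the closed side, in KO mice 8.03% and 3.96%, and on the mean of both genotypes 16.8% and 9.45%. The members' 2 of 38 in each genotype and 4 higher and 2 lower on the mean are near these shares at this number of genes, and no difference from them was tested. At an unadjusted p under 0.05 the members numbered 8 in WT, 5 in KO and 11 on the mean, where 25.6%, 26.6% and 38.4% of OR genes stood. When the adjustment ran over all 32615 probe sets, 1 member was called in WT, 1 in KO and 3 on the mean (Olfr398, Olfr1391 and Olfr1396), and the share of all probe sets called was 0.855% in WT, 1.05% in KO and 2.9% on the mean.

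Of the members, Olfr398 had the largest change. In WT mice its log2 signal was 7.72, 7.75 and 7.98 for open-side arrays against 8.55, 8.57 and 8.69 for closed-side arrays. In KO mice the open side read 7.90, 7.89 and 7.63 and the closed side 8.53, 8.53 and 8.52. Every closed-side array lay above every open-side array in both genotypes, and the closed-side KO arrays were nearly identical. The log2 change was 0.79 ± 0.10 (SE) in WT (adjusted p = 0.00064), 0.72 ± 0.10 in KO (adjusted p = 0.0016) and 0.75 ± 0.07 on the mean (adjusted p = 3.6e-05), a 1.68-fold higher signal. Among all 984 OR genes it ranked 5 from the highest on the mean change. It kept its call under each alternative setting and with each of the 12 arrays left out, the adjusted p in the mean comparison reaching at most 0.00082.

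**Figure D1:**
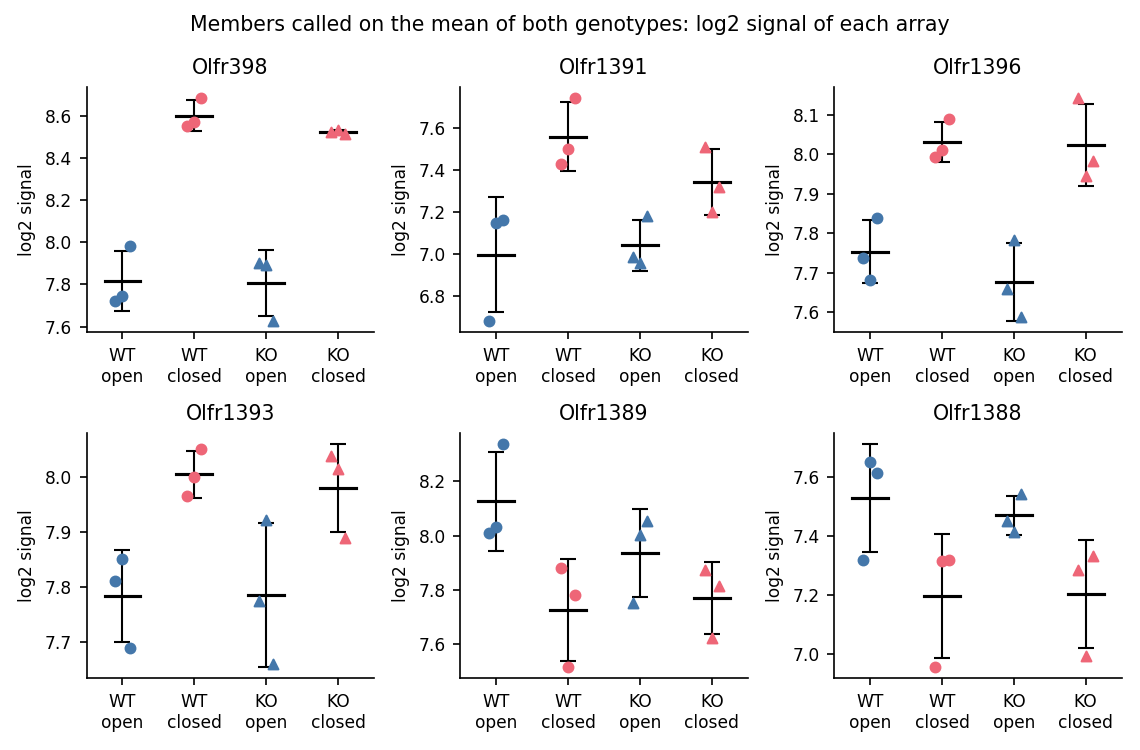
Log2 signal of the 6 members called on the mean of both genotypes, with 1 point for each array (circles WT, triangles KO; blue open side, red closed side), the group mean as a bar and the SD as whiskers (3 arrays a group); the axes do not start at 0 and differ between panels. For Olfr398 no closed-side array reaches down to an open-side array in either genotype, while the sides overlap in 1 genotype for Olfr1393 and Olfr1389.

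The change of Olfr398 was not shared by the genes beside it. Its neighbour Olfr397 on 1 side had a mean change of -0.17 ± 0.10 (SE), with an adjusted p of 0.23. On the other side lies Olfr139, which is not in the numbered series. It fell by 0.18 on the log2 scale on the mean (adjusted p = 0.039). Its change was -0.34 in WT mice (adjusted p = 0.020) and -0.03 in KO mice (adjusted p = 0.87). The genotypes were not shown to differ here, as no OR gene was called for the KO change minus the WT change. Further along the cluster Olfr59, also outside the series, rose by 0.66 ± 0.12 (adjusted p = 0.0018). These 2 genes were looked at for their position, after their values were seen.

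The other 20 members of the Olfr376 to Olfr412 cluster gave no call in any comparison. In WT mice 16 of the 21 had a negative change, with a median over the cluster of -0.15, and in KO mice 11 of the 21 had a positive one, with a median of 0.02. Of all 984 OR genes, 473 had a negative change in WT and 555 a positive one in KO, with medians of 0.01 and 0.04. No test of the cluster, or of a difference between the genotypes in it, was made. The 3 uncalled members nearest the threshold on the mean were Olfr411 at -0.23 ± 0.09 (adjusted p = 0.070), Olfr402 at -0.22 ± 0.09 (adjusted p = 0.096) and Olfr384 at -0.22 ± 0.10 (adjusted p = 0.13). These 3 were named after their values were seen. Olfr411 passed the threshold without WT open 1 (-0.31, adjusted p = 0.0076), as did Olfr378 without KO open 1 (-0.27, adjusted p = 0.023), also named afterwards. Neither was called with any other array left out.

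The strongest signals of that cluster among uncalled members were those of Olfr390 and Olfr389, though signals of different probe sets do not measure the relative abundance of genes. Olfr390 read 8.79, 8.77 and 8.80 on the open and 8.72, 8.43 and 8.77 on the closed side of WT mice, and 8.50, 8.58 and 8.39 against 8.44, 8.38 and 8.58 in KO mice. Its sides overlapped in both genotypes, and the mean change was -0.08, with a 95% interval from -0.25 to 0.08. Olfr389 had a mean change of 0.08, with an interval from -0.16 to 0.32.

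The weakest signal of all members was that of Olfr382. It read 5.62, 6.12 and 4.84 on the open and 5.77, 5.87 and 5.60 on the closed side of WT mice, and 5.30, 5.17 and 5.23 against 5.89, 5.79 and 5.45 in KO mice. In KO mice all closed-side arrays were higher, while in WT mice the sides overlapped and 1 open-side array lay under the filter level of 5. The mean change of 0.35 had an interval from -0.04 to 0.73 and an adjusted p of 0.17. Leaving out the array WT open 2 gave 0.49 and an adjusted p of 0.026. No other alternative called this gene, and the open-side array under the filter level stayed in that fit.

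**Figure D2:**
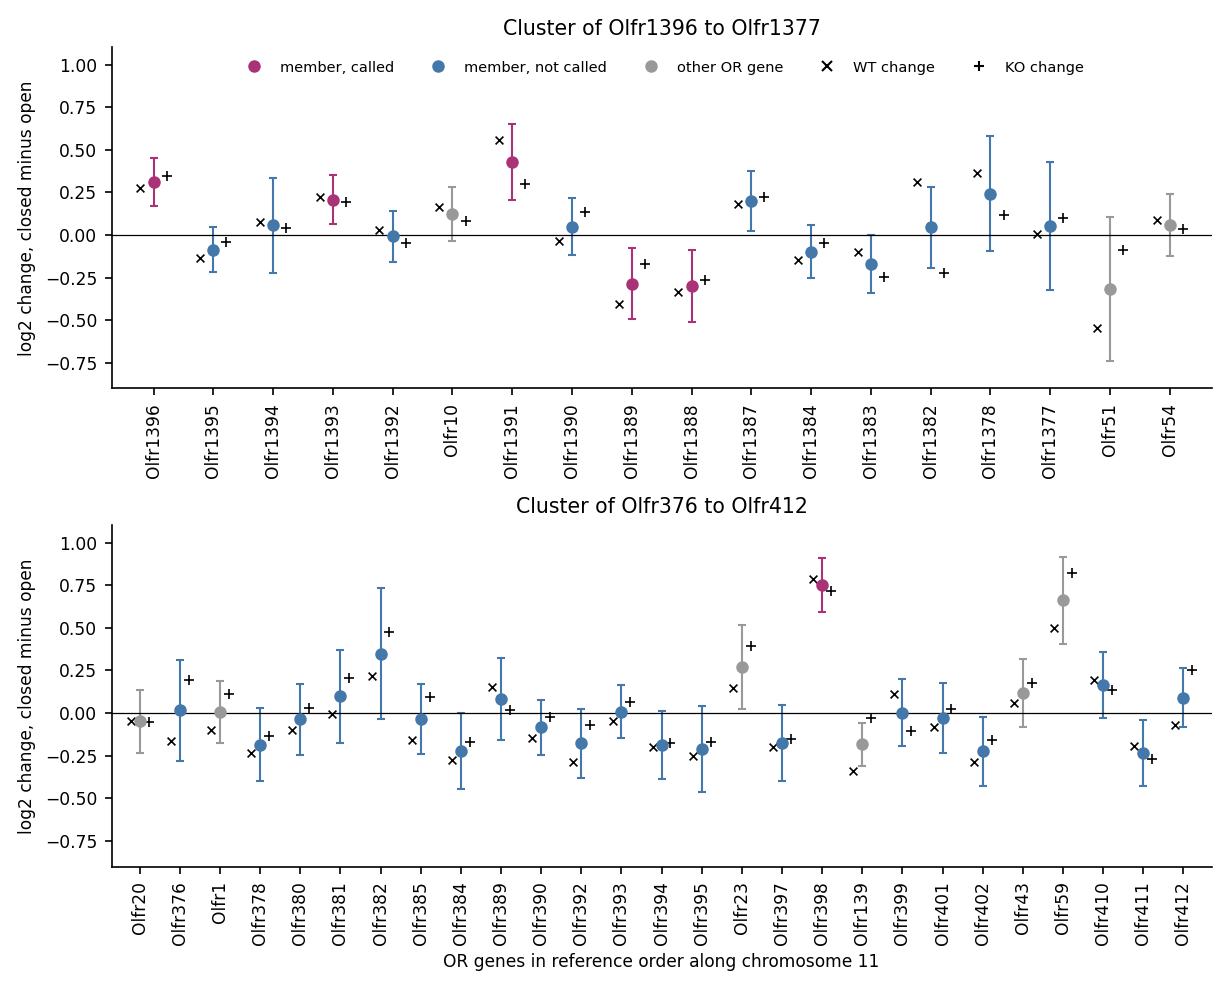
Change in log2 signal, closed minus open side, of OR genes in reference order along chromosome 11, with the mean of both genotypes as a dot with its 95% interval and the WT (x) and KO (+) changes beside it. Purple dots are the 6 called members, blue dots the other 30 members on chromosome 11 and grey dots OR genes outside the numbered series. Olfr398 at 0.75 stands alone among its direct neighbours, and the adjacent Olfr1389 and Olfr1388 lie below 0 between genes that lie above it.

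In the Olfr1377 to Olfr1396 cluster, members called on the mean lay in both directions within a short run of genes. Olfr1391, Olfr1393 and Olfr1396 were higher on the closed side on the mean of both genotypes, and the adjacent Olfr1388 and Olfr1389 were lower. The calls of Olfr1393, Olfr1388 and Olfr1389 were lost under several alternatives, as given below. In the main fit neither lower member was called in WT or in KO mice alone. On the mean 3 of its 15 members were called higher and 2 lower, where 16.8% and 9.45% of all OR genes were, so the counts lie near the background. In the other cluster 1 of 21 was called, and whether the clusters differ was not tested.

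Olfr1391 read 6.68, 7.15 and 7.16 on the open and 7.43, 7.50 and 7.74 on the closed side of WT mice, and 6.99, 6.96 and 7.18 against 7.51, 7.20 and 7.32 in KO mice. The sides did not overlap in either genotype, with the widest spread among the open-side WT arrays. The log2 change was 0.56 ± 0.14 (SE) in WT (adjusted p = 0.026), 0.30 in KO (not called) and 0.43 ± 0.10 on the mean (adjusted p = 0.0093). The WT call was lost when WT open 1, WT closed 2 or WT closed 3 was left out (adjusted p from 0.061 to 0.090), and the call on the mean was not lost without any array.

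Olfr1396, at the end of the cluster, read 7.74, 7.68 and 7.84 on the open and 7.99, 8.01 and 8.09 on the closed side of WT mice. In KO mice it read 7.66, 7.78 and 7.59 against 8.14, 7.95 and 7.98. Each closed-side array lay above each open-side array within both genotypes. The log2 change was 0.28 ± 0.09 (SE) in WT (adjusted p = 0.068), 0.35 ± 0.09 in KO (adjusted p = 0.030) and 0.31 ± 0.06 on the mean (adjusted p = 0.0041). Although only the KO value passed the threshold, the genotypes were not shown to differ: the KO change minus the WT change had an adjusted p of 1.00. The KO call was lost without any one of KO open 1, KO open 3 and the 3 closed-side KO arrays (adjusted p from 0.052 to 0.10), and the call on the mean was kept without each of the 12.

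Olfr1393, whose coding start differed from that of Olfr1391 at 7 of 50 bases, was also higher on the closed side. It read 7.81, 7.85 and 7.69 on the open and 7.96, 7.999 and 8.05 on the closed side of WT mice, and 7.77, 7.92 and 7.66 against 8.04, 8.01 and 7.89 in KO mice. The sides were apart in WT and overlapped in KO. The mean change was 0.21 ± 0.07 (SE), with an adjusted p of 0.038, and the call was lost without any one of 8 arrays, which were WT open 1 and 3, WT closed 2 and 3, KO open 1 and 3 and KO closed 1 and 2 (adjusted p from 0.059 to 0.083). It also fell short with quantile normalization, median centring and trend and robust fitting (adjusted p from 0.050 to 0.064).

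Olfr1388, whose coding start resembles theirs, went the other way. It read 7.32, 7.65 and 7.62 on the open and 6.96, 7.32 and 7.32 on the closed side of WT mice, and 7.45, 7.41 and 7.54 against 7.29, 6.99 and 7.33 in KO mice. The closed side was lower without overlap in both genotypes, although in WT the nearest arrays of the sides read the same to 2 decimals. The mean change was -0.30 ± 0.10 (SE), with an adjusted p of 0.039. Its neighbour Olfr1389 read 8.01, 8.03 and 8.34 against 7.88, 7.51 and 7.78 in WT mice and 7.75, 8.001 and 8.06 against 7.87, 7.62 and 7.81 in KO mice. Its sides were apart in WT and overlapped in KO, and its mean change was -0.29 ± 0.09, with an adjusted p of 0.045.

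Both of these calls lay close to the threshold. That of Olfr1388 was lost without WT open 2, WT open 3, WT closed 1, KO closed 2 or any of the 3 open-side KO arrays (adjusted p from 0.052 to 0.090). That of Olfr1389 was lost without any one of 8 arrays, numbers 2 and 3 of each group (adjusted p from 0.052 to 0.10), and also with no filter and with centring on the OR median (adjusted p of 0.053 in both). The signs of both changes were the same in all of these fits.

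The remaining 10 members of this cluster were not called. Olfr1387, directly beside Olfr1388 and named after its value was seen, had a mean change of 0.20 ± 0.08 (SE), with an adjusted p of 0.088. The members with the strongest signals were Olfr1395, which read from 9.31 to 9.45 on the open and 9.18 to 9.26 on the closed side of WT mice, and Olfr1384, which read from 9.02 to 9.20 and from 8.88 to 9.09. Their mean changes were -0.09 (95% interval from -0.22 to 0.04) and -0.10 (from -0.25 to 0.06). In WT mice the sides of Olfr1395 were apart and those of Olfr1384 overlapped.

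Probe sets shared by several relatives are no OR gene of their own and were adjusted over all probe sets only. There were 10 that named a gene of the numbered series, and none passed that stricter threshold in the WT, KO or mean comparison, the lowest adjusted p being 0.10. On that same adjustment the probe set naming Olfr403 and Olfr43 (mean change 0.26, adjusted p = 0.10) and that naming Olfr406 and Olfr59 (0.29, adjusted p = 0.12) stood ahead of Olfr1393 (adjusted p = 0.15), a member called over the OR genes. Those naming Olfr1393 together with Olfr1392, Olfr1385, Olfr1386 and Olfr10 had a mean change of 0.19, and the one naming Olfr393 and its relatives -0.20.

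The sides were fully separated, with all 3 closed-side arrays above or below all 3 open-side arrays, for 4 members upward and 6 downward in WT mice, where 17.6% and 10.4% of OR genes did so. In KO mice they were 4 upward and 3 downward, against 20.1% and 11.8%. Olfr398, Olfr1391 and Olfr1396 were separated upward in both genotypes and Olfr1388 downward in both. The WT separations downward that did not recur in KO were those of Olfr378, Olfr392, Olfr402, Olfr1395 and Olfr1389.

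The WT and KO changes, which share no arrays, had the same sign in 25 of the 38 members, 65.8%, and in 76.6% of all OR genes. Pearson's r over the members was 0.69 and Spearman's rho 0.62, as a description across genes that share arrays and are not independent, and r was 0.57 without Olfr398. In the Olfr1377 to Olfr1396 cluster 12 of 15 members kept the sign, and in the Olfr376 to Olfr412 cluster 13 of 21. Neither Olfr373 nor Olfr374, the pair on chromosome 8, did so.

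**Figure D3:**
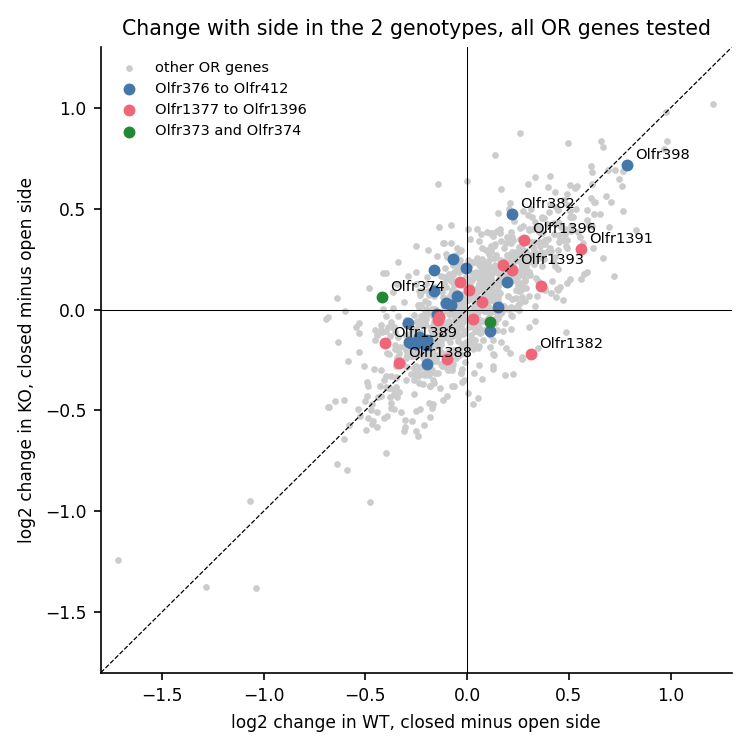
Change in log2 signal, closed minus open side, in WT mice (horizontal) and KO mice (vertical) for 984 OR genes, with 1 point a gene; coloured points are the 38 members by cluster and the dashed line marks equal change. Olfr398 lies near that line at 0.79 and 0.72, and Olfr1382 lies off it at 0.31 and -0.22.

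The difference between genotypes in the response to occlusion was tested as the KO change minus the WT change. No member and 0% of OR genes were called, and at an unadjusted p under 0.05 there was 1 member, Olfr1382, against 3.35% of OR genes. Olfr1382 read 6.76, 6.99 and 6.27 on the open and 6.99, 6.90 and 7.06 on the closed side of WT mice, and 6.87, 6.91 and 6.996 against 6.55, 6.77 and 6.79 in KO mice. Its closed side was lower without overlap in KO mice and overlapped the open side in WT mice. The difference was -0.53, with a 95% interval from -1.01 to -0.06 and an adjusted p of 1.00; this gene was named after its value was seen. For a typical member the 95% interval of this difference reached 0.41 to each side. Olfr1382 is also named on probe sets shared with Olfr1380, Olfr1371, Olfr1381 and Olfr1373. From the open to the closed side these changed by 0.10 to 0.17 in WT mice and by 0.04 to 0.14 in KO mice. None was called over all probe sets.

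Between KO and WT mice on the same side no member was called, and neither was any other OR gene, 0% on the open and 0% on the closed side. At an unadjusted p under 0.05 there were 4 members on the open side, all lower in KO (Olfr374, Olfr412, Olfr390 and Olfr393), where 6.91% of OR genes stood, and 0 members on the closed side, where 6.71% of OR genes stood. Olfr412 and Olfr393 were named after their values were seen. Olfr412 read 7.34, 7.24 and 7.18 on the open side of WT mice and 6.65, 6.85 and 6.94 in KO mice, without overlap. The difference was -0.44 ± 0.11 (SE), with an adjusted p of 0.48. On the closed side the 2 genotypes overlapped, at 7.16 to 7.21 and 6.92 to 7.28. Olfr390 differed by -0.30 (95% interval from -0.53 to -0.07; adjusted p = 0.56) and Olfr393 by -0.23 (from -0.45 to -0.01; adjusted p = 0.65).

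The chromosome 8 pair had weak signals. Olfr374 read 6.33, 6.41 and 6.84 on the open side of WT mice, above the 6.01, 5.46 and 6.20 of KO mice, and 5.99, 5.95 and 6.39 on the closed side, where KO mice read 6.03, 5.74 and 6.09. The open-side difference was -0.64, with an interval from -1.08 to -0.19 and an adjusted p of 0.54. Its closed minus open change was -0.42 in WT and 0.06 in KO, neither called. Olfr373 ranged from 5.59 to 6.15 over the 12 arrays, and its mean change with side was 0.02, with an interval from -0.20 to 0.25.

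**Figure D4:**
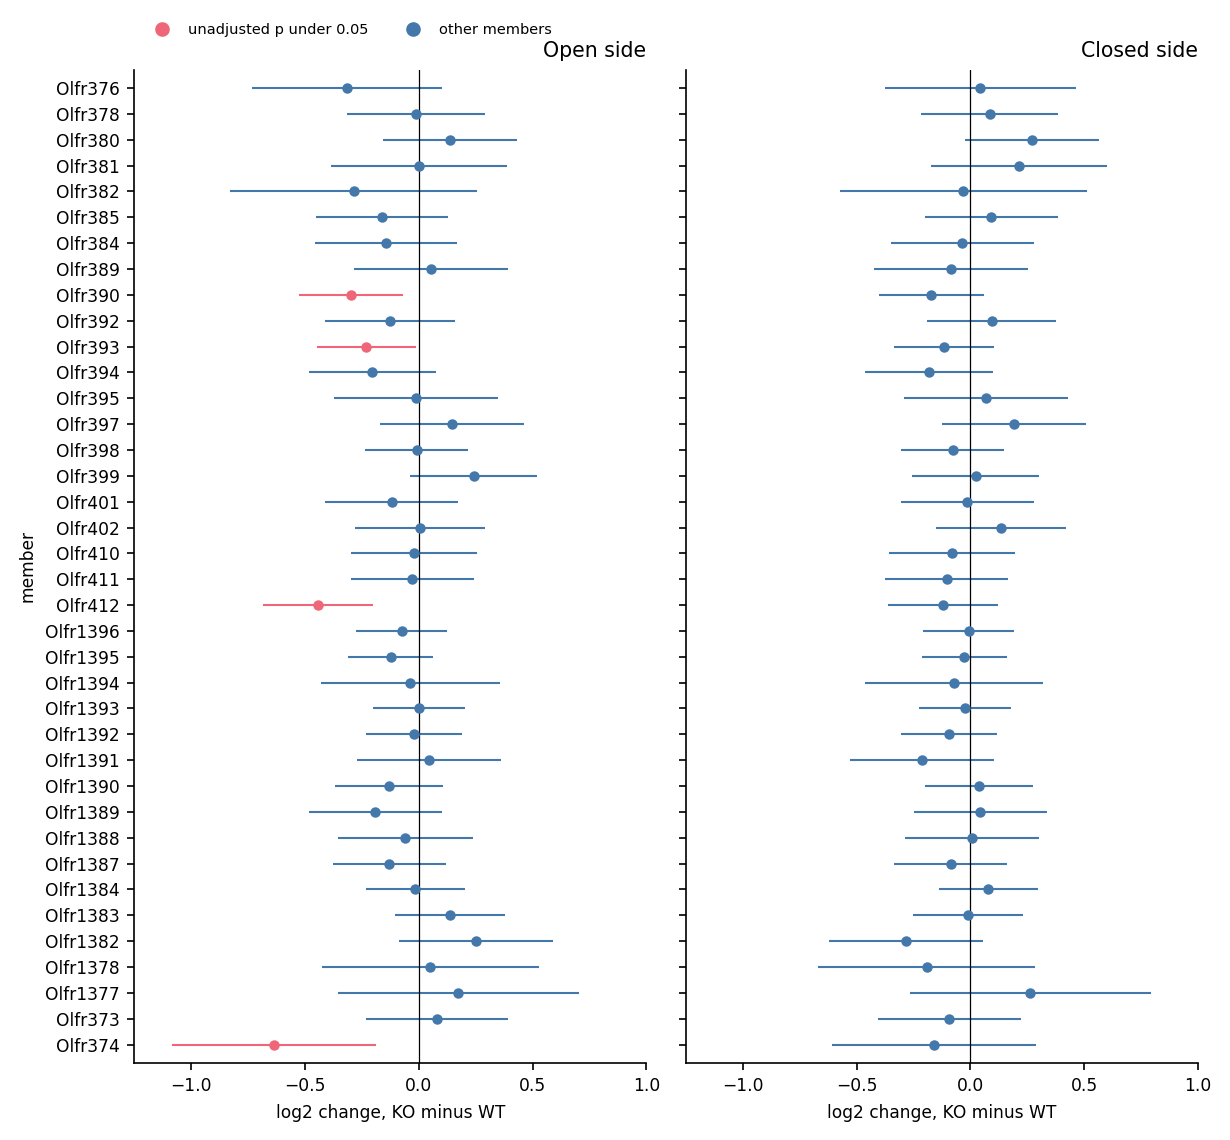
Difference in log2 signal, KO minus WT, of the 38 members on the open and on the closed side, with bars for the 95% interval; red marks an unadjusted p under 0.05. The 4 red points, all on the open side and all below 0, are Olfr390, Olfr393, Olfr412 and Olfr374, and none passed adjustment over the OR genes.

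The other genes that an OR gene's output depends on were read from lists of names. Of 20 genes with roles in OR gene choice and the feedback that fixes it, such as Lhx2, Ldb1, Ebf1, Kdm1a, Atf5 and Lbr, none was called in any comparison (adjusted over all probe sets), and their median change on the mean of both genotypes was -0.02. At an unadjusted p under 0.05 on the mean there were 3, Ebf4 at 0.21, Eif2ak3 at -0.17 and Kdm1a at -0.15, named after their values were seen. Among 6 genes of OR trafficking 2 were higher on the closed side on the mean, Rtp1 (0.27 ± 0.05, SE), a protein that carries ORs to the cell surface, and Reep1 (0.28 ± 0.06). Of 16 odor transduction genes tested, 7 were higher and none lower on the mean, among them the phosphodiesterase Pde4a (0.57 ± 0.06) and the channel subunit Cnga4 (0.40 ± 0.05). In WT mice alone 2 were higher and 1 was lower, Arrb2, a beta-arrestin, at -0.42 ± 0.08. In KO mice alone 4 were higher and none was lower. Of all 32615 probe sets tested, 543 were called higher and 402 lower on the mean.

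The mean levels of mature and immature neuron markers moved with side in both genotypes, though few single markers were called within 1 genotype. In WT mice 1 mature marker was called higher and 1 immature marker lower on the closed side, and in KO mice 3 and 1. On the mean, 10 of 15 mature neuron markers were higher on the closed side and 1, Slc17a6, was lower, and the mean log2 level of the list was 11.05 to 11.06 on WT open, 11.20 to 11.30 on WT closed, 11.02 to 11.11 on KO open and 11.29 on KO closed arrays. Of 11 immature neuron markers 8 were lower, among them Gng8 (-0.42 ± 0.06, SE) and Gap43 (-0.28 ± 0.06), and the list's level was 10.02 to 10.03 on WT open, 9.72 to 9.86 on WT closed, 9.98 to 10.08 on KO open and 9.74 to 9.83 on KO closed arrays. Of 8 basal cell markers 1, Neurod1, was lower, and none of 7 sustentacular, 6 respiratory and ciliated, 5 Bowman gland and 7 immune cell markers was called, nor any of the 2 dorsal and 2 ventral zone markers. The part of these shifts in the members' changes was not tested.

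RefSeq windows of 300 bases, from 250 before to 50 after the annotated start, were given for 32 of the 38 members, all 6 called ones included. For 72.6% of OR windows the annotated start is the start codon itself, so most windows do not hold the true promoter. The homeodomain letters TAATTA stood on either strand in 4 of the 32 member windows, 18.6% of all OR windows and 5.29% of all windows. TAATTG stood in 7 of the 32, 23.2% of OR windows and 8% of all. A palindromic Olf/EBF site, searched on both strands, stood in 0 of the 32, 0.530% of OR windows and 0.904% of all. None of the 6 called members' windows held any of the 3, which says only that these letters are not in those windows.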

How the data were processed

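RNA from sides of the MOE was hybridised to 12 Affymetrix Mouse Gene 1.0 ST arrays. The authors deposited log2 signals, summarised with IterPLIER and sketch-quantile normalization in Affymetrix Expression Console, for 35556 probe sets with 0 missing values. Probe sets were named from the platform annotation, with 1 symbol for 21789, several for 1621 and none for 12146. A gene was represented by its probe set with the highest mean. Probe sets with a mean log2 signal above 5 (32615) were fitted in limma 3.58.1 (R 4.3.3) with 1 mean per group and eBayes over all 12 arrays, and p-values were adjusted (Benjamini-Hochberg) over the 984 OR genes, as the study's methods do, and over all probe sets. The 3 arrays a group limit the precision, and where nothing states separate litters or days the p-values measure the spread between these samples. The fit was run on simulated data with independent noise in each array and planted changes larger than most of those called here. That run does not show how well the calls here hold. Members and gene lists were chosen with earlier results of these data known. Named are all called members, the 2 uncalled members with the strongest signal in each cluster, the 2 weakest members and those off chromosome 11, and up to 3 called genes of a list; other genes are said to be named after their values were seen. Protein sequences were not used here, so a planned naming of members by protein identity was not applied. Hemoglobin genes had no probe set of their own and were not tested. Alternatives were no filter or a filter at 7, the adjustment over all probe sets, quantile normalization, centring on all probe sets or on OR genes, trend and robust fitting, array weights, fewer arrays, a replicate block, mean probe sets and leaving out each array.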

Additional observations from a re-analysis of the deposited data

How the results depend on the processing

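No change of a called member reversed under any alternative: of 224 recomputed changes of called members, 177 stayed past the threshold and 47 fell short of it. Many of these could not reverse, because the alternative altered the p-value and not the change itself. Among them were the filters, the adjustment over all probe sets and trend and robust fitting. The same holds within 1 genotype for leaving out an array of the other. The counts of called members moved as follows. In WT, 2 became 3 with trend and robust fitting, 4 with a filter at 7 and 4 with the replicate block, and 1 with the adjustment over all probe sets and with only the arrays compared. In KO, 2 became 1 with the adjustment over all probe sets, median centring, trend and robust fitting, only the arrays compared and the replicate block. On the mean of both genotypes, 6 became 3 with the adjustment over all probe sets, 8 with a filter at 7, and 5 with no filter, quantile normalization, median centring, centring on the OR median, trend and robust fitting and the replicate block. Leaving out 1 array gave 1 to 2 members in WT, 1 to 2 in KO and 3 to 6 on the mean; the 3 arose without WT open 3, KO open 3 or KO closed 2. With a filter at 7 only 28 members were tested. The comparisons of KO with WT and of the genotypes' responses stayed at 0 called throughout. The members gained were, in WT, Olfr1389 and Olfr1396 with the filter at 7, Olfr1389 with trend and robust fitting and Olfr1388 and Olfr374 with the block, and on the mean Olfr1387 and Olfr411 with the filter at 7. Same-numbered arrays were not treated as paired: deviations from the group means correlated at -0.01 to 0.17 in WT and 0.03 to 0.23 in KO between sides, and 3 of 6 open-side arrays correlated best with their own number. Between genotypes they correlated at 0.07 to 0.16 on the open side, each array best with its own number, and at 0.04 to 0.18 on the closed side, 2 of 3 best with their own, which is a hint from the data and not the design. Under the replicate block Olfr1389 on the mean (adjusted p = 0.060) and Olfr1396 in KO (adjusted p = 0.054) lost their calls. Scaling moved the median of all genes by at most 0.03 on the log2 scale. With 3 arrays a group the 95% interval of a typical member's change reached 0.29 to each side within a genotype and 0.21 on the mean, and was wider for weak members such as Olfr382.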
